A study of Mus musculus with 7 samples.

Results

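The box C/D small nucleolar RNAs (snoRNAs) are the transcripts whose gene symbol starts with SNORD, in either case, among the transcripts probed by CIRS-seq in E14 mouse embryonic stem cells (ESCs). They are 135 transcripts of 135 genes, with 104 distinct symbols, out of 26827 transcripts listed. Each has 1 exon and is annotated as a snoRNA on the mm9 assembly (GENCODE vM1). CIRS-seq counts the positions at which reverse transcription (RT) stops, and a base modified by a reagent stops it. Lysates of E14 ESCs (strain 129/Ola) were digested with Proteinase K and then probed with DMS, with CMCT or with neither. DMS was used at 50, 100, 150 and 200 mM and CMCT at 10, 20, 25 and 50 mM, and the 4 doses of a reagent were pooled. The non-treated control (NT) pools the 0 mM aliquots of both buffers. Each treatment has 2 biological replicates, and 1 RNA-seq library of the same line was also made. After probing, the DMS RNA was passed over spin columns, a step that the methods do not give for the CMCT and NT RNA. Any effect of that step on these RNAs cannot be told apart from that of DMS.

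Box C/D snoRNAs guide the methylation of the ribose 2′ hydroxyl in ribosomal RNA (rRNA) and small nuclear RNA, and a few of them take part in cutting the rRNA precursor. They carry box C near the 5′ end and box D near the 3′ end, which fold together into a kink-turn. Fibrillarin (Fbl), Nop56, Nop58 and the 15.5 kDa protein (Nhp2l1) bind there. The guide lies upstream of box D or of the inner box D′, and pairs with the target RNA. Most mammalian members are cut out of introns of host genes, many of which encode ribosomal proteins or nucleolar proteins. U3, U8 and U13 are transcribed from promoters of their own.

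The sequences below belong to members with many RT stops or with the largest differences described further on. They are read from the mm9 genome on the strand of the gene, 5′ to 3′, and capitals mark, where found, box C (TGATGA within the first 20 bases), box D (the last CTGA within the last 25 bases), box D′ and box C′. The copy of SNORD12 is shown because 2 of its near-identical loci fell most in CMCT, and SNORD29 and Snord45c because they rose there.
Snord69, chr14:31827473-31827552, minus strand: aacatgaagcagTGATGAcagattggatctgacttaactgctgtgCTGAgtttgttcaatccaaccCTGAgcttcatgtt
Snord22 (U22), chr19:8800356-8800481, plus strand: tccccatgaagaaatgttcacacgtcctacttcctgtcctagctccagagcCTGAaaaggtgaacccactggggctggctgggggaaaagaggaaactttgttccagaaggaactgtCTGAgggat
Snord118 (U8), chr11:68886929-68887063, plus strand: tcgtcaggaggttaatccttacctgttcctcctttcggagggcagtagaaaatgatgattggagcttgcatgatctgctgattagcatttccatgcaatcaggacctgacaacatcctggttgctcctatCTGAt
Snord32a, chr7:52382752-52382834, minus strand: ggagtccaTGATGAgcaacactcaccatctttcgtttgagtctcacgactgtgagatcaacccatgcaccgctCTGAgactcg
SNORD88, chr7:51505820-51505912, plus strand: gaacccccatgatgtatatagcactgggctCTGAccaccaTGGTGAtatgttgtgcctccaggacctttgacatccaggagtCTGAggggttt
SNORD12, chr2:166890498-166890586, plus strand: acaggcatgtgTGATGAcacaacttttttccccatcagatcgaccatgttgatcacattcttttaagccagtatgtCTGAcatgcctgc
SNORD29, chr19:8799582-8799646, plus strand: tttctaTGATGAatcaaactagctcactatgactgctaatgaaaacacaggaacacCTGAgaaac
Snord45c, chr3:153575089-153575168, minus strand: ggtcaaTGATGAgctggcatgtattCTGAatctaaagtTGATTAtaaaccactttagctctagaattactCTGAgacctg

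Over all members, box C without a mismatch was found in 90 of 135 (66.7%), and in 132 (97.8%) with up to 1 mismatch. It started at a median of position 8, with a range from 1 to 17. Box D was found in 134 (99.3%) and started a median of 9 bases from the 3′ end. Box D′ was found in 89 and box C′ in 50. Among all transcripts of at least 50 bases, 1.30% held box C and 11.1% held box D in the same windows. The box H/ACA snoRNAs, the other large class, which guides pseudouridylation and whose symbols start with SNORA, held box C in 1 of 166 and box D in 21. The search was made on the transcript strand alone. The members are 60 to 238 bases long, with a median of 75. No RT stop is recorded in the last 25 bases of a transcript, so a median of 50 positions was measured and box D could not be seen.

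Of the members, 121 lie on the same strand within another gene, over 60 host genes, and 35 lie in genes of ribosomal proteins. The other 14 have no such host, among them Snord118 and Snord13. U3, Snord114, Snord115 and Snord116 were not analysed here.

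The 6 libraries held 140186204 to 247369982 RT stops with each genomic position counted once per gene. The members held 24611 to 97037 of them, which is 0.0144% to 0.0392% of a library. The median member had 10.1 RT stops per base over the 6 libraries together, and 14.4 when the last 25 bases were left out of the length. Per library, the median member ranged from 0.763 RT stops per base (DMS 1) to 3.07 (CMCT 1). A few members held much of the signal, since the 5 with the most stops took 32.5% to 47.2% of all member stops of a library. In the RNA-seq library, 6 ESC markers such as Pou5f1 and Zfp42 had 15.9 to 142 RPKM (alignments scaled to exon length and library size). The markers of fibroblasts, endoderm, mesoderm and neural cells had 0 to 3.05 RPKM, with Afp at 0 and Gata6 highest. In such bulk libraries, fewer cells with an RNA and less of it per cell cannot be told apart.

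The NT libraries stand apart at the first positions of the transcripts. At position 3, both NT libraries held 0 stops in all 26792 transcripts, members included. The treated libraries held 137511 to 814676 stops there over all transcripts. On the members they held 483 and 4161 in DMS and 3203 and 266 in CMCT. At positions 1 and 2 of the members, the NT replicates had nearly equal totals (8403 and 8389 at position 1, 4623 and 4622 at position 2). Over all transcripts they had 482514 and 482587 at position 1, and 1879435 and 1879336 at position 2. The 2 NT libraries as a whole held 181331360 and 163073003 stops. At position 1 of all transcripts, the replicates had 673718 and 1451599 stops in DMS, and 686862 and 378463 in CMCT. These zeros do not show that RT did not stop there. For 40 members also counted on host transcripts (below), this base held a mean of 5.79% (NT 1) and 6.03% (NT 2) of the stops. Those stops are absent from the snoRNA counts, and the cause was not tested. For other transcripts, the deposited zeros do not tell RNA without a stop from a position left out. The main results below are therefore also given without position 3, a setting added after seeing the data, and for single members where it moves the value. Without it, all 46 calls of the DMS comparison and 34 of the 36 calls of the CMCT comparison described below were kept.

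Snord69, which lies in Gnl3 (the gene of nucleostemin), had the most RT stops per base of all members. It had 10515 and 11388 RT stops in NT, 901 and 1055 in DMS, and 7815 and 4489 in CMCT. Both DMS libraries lay far below the other 4. Snord22 (U22), which is needed for the maturation of 18S rRNA and lies in the noncoding gene Snhg1, was highest in CMCT. Its counts were 7350 and 1983 in NT, 2723 and 2530 in DMS, and 22944 and 11199 in CMCT. The NT replicates of Snord22 differed more from each other than the DMS replicates did. Snord13 (U13) guides the acetylation of 18S rRNA. It had 3342 and 2770 RT stops in NT, 2327 and 4340 in DMS, and 4057 and 2024 in CMCT, so that its groups overlapped in raw counts. Snord118 (U8), needed for the maturation of 5.8S and 28S rRNA, had 4803 and 2262 in NT, 3472 and 2820 in DMS, and 4423 and 1889 in CMCT, which overlapped as well. Neither Snord13 (adjusted p = 0.48 in DMS and 0.20 in CMCT) nor Snord118 (0.18 and 0.10) passed the edgeR test described below.

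Snord32a and Snord33 share the host Rpl13a, a ribosomal protein gene that carries snoRNAs in its introns. Snord32a had 3235 and 3107 RT stops in NT, 669 and 650 in DMS, and 2483 and 1078 in CMCT. Snord33 had 1371 and 1078 in NT, 511 and 1500 in DMS, and 3677 and 562 in CMCT. Snord32a was lower in both treated groups in raw counts, while those of Snord33 overlapped. SNORD24 on chromosome 1, within the noncoding gene Gas5, had 1983 and 1527 RT stops in NT, 1203 and 1049 in DMS, and 2960 and 829 in CMCT. A second locus with the symbol SNORD24 lies in Rpl7a. SNORD94 in Ptcd3 had 3206 and 799 in NT, 916 and 530 in DMS, and 5018 and 1084 in CMCT, with replicates that differed several-fold in NT and in CMCT. The order of the members by RT stops was similar within a treatment, with a Spearman correlation over the 135 members of 0.96 between the NT replicates, 0.84 between the DMS replicates and 0.91 between those of CMCT. It was not always higher within a treatment than across, since DMS 1 had 0.86 with both NT 1 and CMCT 1. Over all pairs across treatments it ranged from 0.64 to 0.86. These correlations are a description, since members of a library share its depth.

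**Figure D1:**
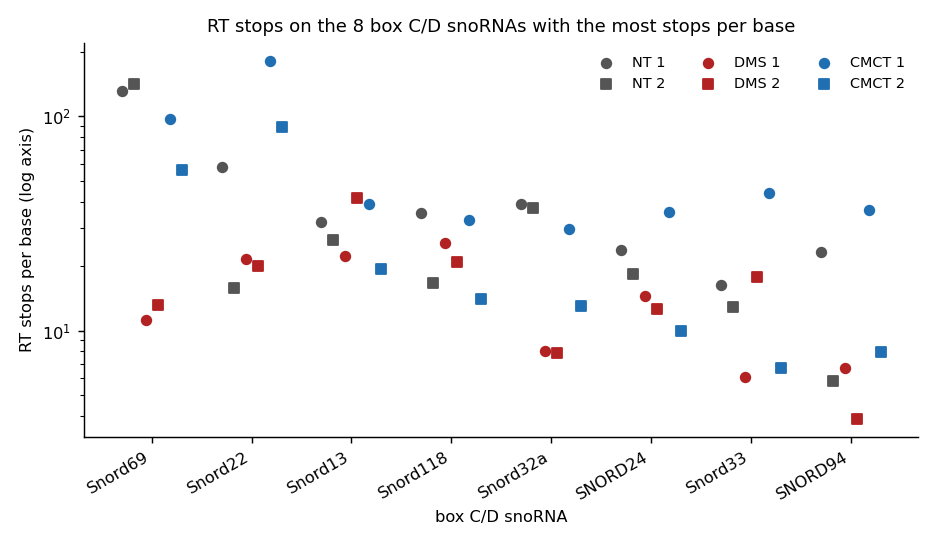
RT stops per base (log axis) of the 8 box C/D snoRNAs with the most stops, in each of the 6 libraries. Circles are replicate 1 and squares replicate 2, and Snord69 stands out by the distance of both DMS libraries from the rest.

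Stops near the 5′ end made up much of the signal of box C/D snoRNAs. Members with at least 50 RT stops in every library were examined, which were 69 of 135. In the median member, the first 8 positions held 71.0% and 67.6% of the stops in the NT replicates, 55.2% and 62.7% in DMS, and 66.8% and 53.2% in CMCT. Leaving out position 3 gave treated medians of 55.2% and 62.3% in DMS and 66.3% and 50.5% in CMCT. In 102 box H/ACA snoRNAs the medians were 4.11% to 7.42%. The 1556 other transcripts under 200 bases with as many stops had medians of 0.394% to 6.13%. These are descriptions of the annotated transcripts, with no test. The spread between members was wide, with quartiles of 11.9% and 91.9% in NT 2.

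In Snord69, the share was high in every library (91.1% to 98.8%). There, the first 8 positions held 98.6% of the stops of NT 1 (95% exact binomial interval 98.3% to 98.8%) and 91.6% (89.6% to 93.3%) of those of DMS 1, with the highest count at position 6 in every library. Other members with many stops had low shares. In Snord22, the share ranged over the libraries from 0.679% (CMCT 2) to 7.48% (NT 1), and the most frequent stop was at position 21 in all 6. On the Snhg1 transcript that holds Snord22 within an exon, the highest count lay before the annotated start in NT 2 and DMS 2. There, 63.5% and 36.9% of the stops fell within 8 bases on either side of the start, against 6.65% to 29.4% in the other 4 libraries. Snord13, which has no host, ranged from 2.97% (DMS 1) to 10.4% (CMCT 1). Snord118 ranged from 2.79% (NT 2) to 17.2% (DMS 2). These intervals cover counting error only.

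The share in the first 8 positions lay below both NT libraries in both DMS libraries in 32 of 69 members (46.4%), where 15.9% of all transcripts with as many stops did so. For CMCT it did so in 33 (47.8%), against 18.8% of all transcripts. Among the other transcripts under 200 bases, 48.1% did so in DMS and 45.7% in CMCT, which is near the share of the members. With position 3 left out, 35 members (50.7%) did so in DMS and 37 (53.6%) in CMCT, against 16.7% and 19.8% of all transcripts and 50.3% and 47% of the other short ones. In 14 members (20.3%, DMS) and 12 members (17.4%, CMCT) both treated libraries lay above both NT libraries. This is near the shares of all transcripts (17.1% and 13.8%) and of the other short ones (17.9% and 13.5%).

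Stops near the 5′ end were also counted on host transcripts, 1 for each of 47 members that lie within an exon of a longer listed transcript. This shows what lies on either side of the annotated first base, for the 40 of them with at least 50 stops in every library. The peak lay at a median of position 0 or 1, where 1 is the annotated first base and 0 the base before it. From 8 bases before to 8 bases after the annotated start lay a median of 93.2% and 95.7% of the stops in NT, 79.4% and 83.7% in DMS, and 84.3% and 79.4% in CMCT. The window for these shares ran from 20 bases before the start to the last measured base of the snoRNA. The stops lay mostly at the annotated end in all 6 libraries, and less so in the 4 treated ones.

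**Figure D2:**
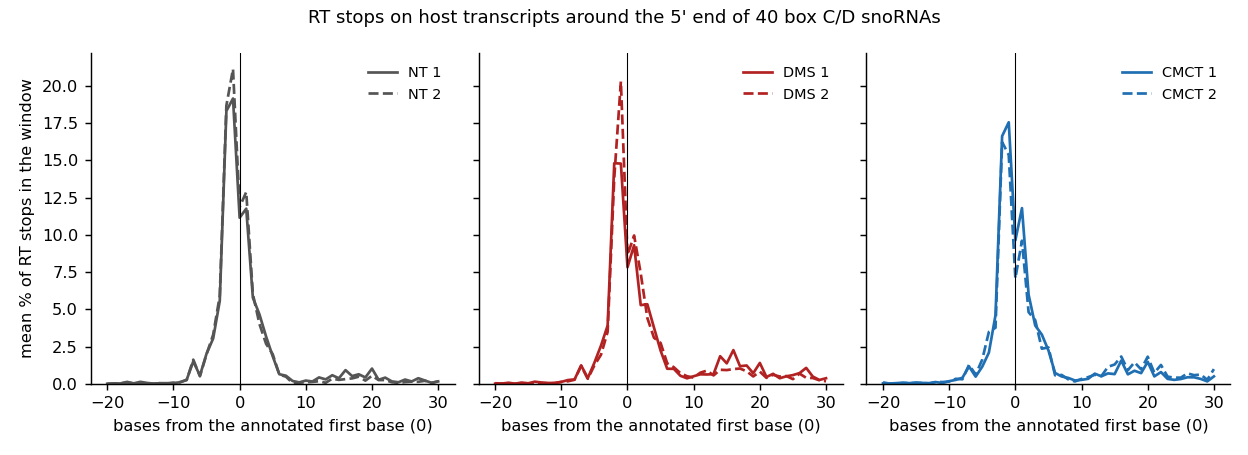
Mean share (%) of RT stops at each distance from the annotated first base (0) of 40 box C/D snoRNAs, counted on host transcripts, by library (solid, replicate 1, and dashed, replicate 2). The highest means lie at −2 and −1, just before the first base, in all 6 libraries, and the peak extends past it. The first base is 0 here, but 1 in the text above. A low shoulder from 14 to 18 bases inside is higher in DMS and CMCT than in NT.

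Part of this signal is outside the counts per snoRNA. On the host transcripts, 42.0% to 67.9% of the stops pooled over the 40 members lay before the annotated start, and these are not counted for the snoRNA. They numbered 57739 and 59861 in NT, 8929 and 15814 in DMS, and 34661 and 16352 in CMCT. No setting of the comparisons below counts them, so the part left out differs between treatments. A few members weigh heavily in the pooled share. In NT 1, Snord14c, Snord14d and Snord14e had 12539, 12435 and 6087 of the 57739 stops before the start, and the first 2 share sequence. Of the 40 members, 18 to 23 had more stops before the start than after it. Over the same stretch, the host transcript also carried more stops than the snoRNA itself in 36 to 40 of the 40 members. The median ratio of host to snoRNA counts was 1.44 and 1.61 in NT, but 1.08 and 1.05 in DMS and 1.05 and 1.10 in CMCT. Over that stretch the 40 host transcripts held 32992 and 28359 stops in NT, 10113 and 15708 in DMS, and 47783 and 22507 in CMCT. The 40 snoRNA transcripts held 20466 and 13156, 9370 and 14899, and 45461 and 20270. The difference between host and snoRNA counts was larger in NT than in the treated libraries, and the comparisons that follow were therefore repeated with the largest count that any listed transcript holds at each position, a setting added after seeing the data.

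The comparison of DMS with NT asks which members held more or fewer of a library's RT stops at their annotated bases. Stops just before the annotated start are left out, so it does not measure the amount of the RNA. It was made with edgeR's quasi-likelihood test over 13216 genes, with Benjamini-Hochberg adjustment at 0.05, and 134 of the 135 members were tested. The members that passed were nearly all lower in DMS. Of the 134, 44 fell and 2 rose, which is 32.8% and 1.49%, where 12.5% of all genes tested fell and 13.8% rose (26.4% differed in either direction). The median log2 fold change of the members was −0.57, against 0.01 over all genes. Among box H/ACA snoRNAs, 20 of 166 fell and 13 rose, with a median of 0.07. Among the 510 other tested genes under 100 bases, of which 318 are miRNA genes, 48 fell and 166 rose, with a median of 0.40. Among the 122 members of that length, 38 fell and 2 rose. With position 3 left out, 45 members fell and 2 rose, with a median of −0.67, where 12.8% of all genes fell and 13.9% rose. When the largest count of any transcript was taken at each position, 55 fell and 0 rose (41.0% and 0%), with a median of −1.01, where 12.6% of all genes fell and 13.9% rose, with a median of 0.01.

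The largest drop was that of Snord69, with a log2 fold change of −3.97 ± 0.35 (SE, n = 2 against 2, adjusted p = 5.4e-05 by edgeR). SNORD88 (ENSMUSG00000080683) in 2410002F23Rik had 647 and 641 RT stops in NT and 86 and 111 in DMS, and fell by 3.18 on the log2 scale (SE 0.32, adjusted p = 0.00011). Snord32a, with the counts given above, fell by 2.74 (SE 0.28, adjusted p = 0.00011). The groups do not overlap in any of these, which was a condition for being listed among the largest drops. These calls stayed past the threshold under every alternative that could be run for them, with adjusted p of at most 0.027.

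Only 2 members rose in DMS, both had unequal replicates, and neither rise was seen in the counts of the host transcripts. Snord1a in 1810032O08Rik had 22 and 18 RT stops in NT and 54 and 687 in DMS (log2 fold change 3.77 ± 1.07, SE, adjusted p = 0.021 by edgeR, and 2.86 without position 3), and its call was lost without NT 1, without NT 2 or without DMS 2. On the transcript with the most stops at each position, the same stretch had 311 and 817 stops in NT and 58 and 691 in DMS, and a log2 fold change of −1.13 (adjusted p = 0.40 by edgeR). Snord38a, named after its values were seen because it is the other of the 2, had 33 and 15 in NT and 40 and 375 in DMS. It was called under 6 of 14 alternatives. Its stretch had 134 and 391 in NT and 40 and 380 in DMS by the largest count of any transcript, and −0.86 (adjusted p = 0.44).

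Several hosts carry more than 1 member. In 2410002F23Rik, all 4 tested members (both loci named SNORD88, Snord88a and Snord88c) fell in DMS. Of the measured positions of Snord88a and Snord88c, 66.2% start 25 bases that are unique in the genome. In Nop58, 3 of 4 fell. In Rpl13a, Snord32a and Snord34 fell. Snord34 had 1097 and 1096 RT stops in NT and 392 and 338 in DMS (log2 fold change −2.06 ± 0.26, SE, adjusted p = 0.00032 by edgeR). Snord33 and Snord35a in the same host did not pass (adjusted p = 0.36 and 0.75), and for both this depended on the setting. Snord33 had −0.72, and −1.20 without position 3 (adjusted p = 0.086 by edgeR). It fell by 2.53 with the first 8 positions left out (adjusted p = 0.0003 by edgeR). By the largest count of any transcript it had 4542 and 4895 stops in NT and 585 and 1566 in DMS, and fell by 2.60 (adjusted p = 0.0038). Snord35a had −0.31 (adjusted p = 0.67) and −0.25 (0.75) under these settings, but was called without DMS 2 (adjusted p = 0.0054). Of 8 members in Gas5, which encodes no protein and hosts snoRNAs in its introns, SNORD24, SNORD74 and SNORD79 fell. The fall of SNORD74 (log2 fold change −2.07, adjusted p = 0.0012 by edgeR) was not seen with the first 8 positions left out (0.14, adjusted p = 0.80). SNORD77, named after its values were seen, had 0.19, but fell by 2.08 by the largest count of any transcript (adjusted p = 0.011 by edgeR). The call of SNORD24 (log2 fold change −1.09, adjusted p = 0.024 by edgeR) was lost without NT 1, without NT 2, without DMS 1 or without the first 8 positions (−0.72, adjusted p = 0.092). By the largest count of any transcript it was −2.06 (adjusted p = 0.0014). SNORD79 went from 90 and 89 RT stops to 25 and 26 and fell by 2.28 (SE 0.38, adjusted p = 0.0014 by edgeR). Its replicates agreed within 1 stop in all 3 treatments, the cause of which was not tested. None of the 8 members in Snhg1 and none of the 5 in Rpl4 passed, though SNORD27 in Snhg1, named after its values were seen, fell by 2.62 by the largest count of any transcript (adjusted p = 0.01 by edgeR).

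Snord14 (U14) guides a methylation of 18S rRNA and is also needed for its processing. Of its 4 listed loci, Snord14c, Snord14d and Snord14e in Hspa8 fell by 1.13, 1.07 and 1.21 (adjusted p = 0.0064, 0.0077 and 0.0086 by edgeR). The call of Snord14d was lost without DMS 2, and that of Snord14e without NT 2 or without DMS 1. Snord14c and Snord14d share sequence, and neither passed when only positions found once in the genome were counted. Snord14a in Rps13 had 50 and 35 RT stops in NT and 51 and 45 in DMS (adjusted p = 0.62). SNORD113 is known as a repeated family of the imprinted Dlk1-Dio3 region. Of the 9 loci with this symbol, 7 lie in 1 stretch of chromosome 12, 1 on chromosome X and 1 (ENSMUSG00000088587) on chromosome 9. The locus on chromosome 9 fell, from 21 and 20 RT stops to 8 and 8 (log2 fold change −1.80), and its call was lost without NT 1, without NT 2 or without DMS 1. Its replicates also agreed within 1 stop in all 3 treatments. By the largest count of any transcript, 2 loci on chromosome 12 fell as well, ENSMUSG00000084691 by 1.32 and ENSMUSG00000084549 by 1.66 (adjusted p = 0.018 and 0.0048 by edgeR). All 4 loci of SNORD12 fell, by 1.65 to 2.18, and each call was lost without NT 2 or without DMS 1. The locus on chromosome X (ENSMUSG00000077294) is near-identical to ENSMUSG00000077565 on chromosome 2 and had 0 RNA-seq alignments. The falls of these loci are therefore not independent. Without the first 8 positions, Snord12 (ENSMUSG00000077698) had −0.34 (adjusted p = 0.57 by edgeR) and the SNORD12 locus ENSMUSG00000077515 had −0.54 (0.49). The 5 loci of SNORD50 and the 3 each of SNORD18, SNORD36 and SNORD58 had no call, but with the largest count of any transcript the 3 loci of SNORD36 fell by 1.63 to 2.00 (adjusted p = 0.0019 to 0.01 by edgeR) and the SNORD50 locus ENSMUSG00000075818 by 1.09 (0.023).

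The count of calls depended on single libraries and on the 5′ end. It was lower without NT 1, without NT 2 or without DMS 1, and higher without DMS 2. More members rose without DMS 1 than in the main fit, but the share of members that rose was below that of all genes. Each of these fits leaves 1 library in a group. The share of all genes called was lower than in the main fit whichever library was left out. With the first 8 positions of every transcript left out, a choice made after seeing the data, 26 of 112 members fell and 3 rose (23.2% and 2.68%) and the median was −0.33, where 12.9% of all genes fell and 14% rose. Of the 46 calls, 38 could be fitted under this setting and 21 were kept. Snord69 then fell by 1.41 (adjusted p = 0.0053 by edgeR, at most 0.017 over all alternatives) and Snord32a by 2.37 (0.00042, at most 0.027). Under the same setting SNORD79 had −0.18 (adjusted p = 0.90) and Snord34 −0.55 (adjusted p = 0.24), each the highest p of its alternatives.

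The comparison of CMCT with NT used the same fit and shares the NT libraries. Members moved in both directions in CMCT. Of 134, 22 rose and 14 fell (16.4% and 10.4%), where 15.0% of all genes rose and 13.9% fell (29.0% differed in either direction). These shares are near those of all genes. The median log2 fold change was 0.18, against 0.11 over all genes. With size factors by relative log expression, the median of all genes was 0.01 and that of the members 0.08. Under it, 12 members rose and 15 fell (8.96% and 11.2%), where 11.6% of all genes rose and 8.80% fell. Box H/ACA snoRNAs had 8 rises and 6 falls among 166. With the first 8 positions left out, 26 of 112 box C/D members rose and 4 fell (23.2% and 3.57%), and the median was 0.43. Under that setting 15.7% of all genes rose and 14.2% fell, with a median of 0.11. With position 3 left out, 20 of 134 rose and 14 fell, with a median of 0.09, where 15.0% of all genes rose and 14% fell. With the largest count of any transcript, 20 rose and 24 fell, with a median of −0.08, so that the median changed sign, while 15.1% of all genes rose and 14% fell, with a median of 0.11.

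SNORD29 in Snhg1 rose most, from 37 and 37 RT stops in NT to 318 and 261 in CMCT, with a log2 fold change of 2.47 ± 0.35 (SE, n = 2 against 2, adjusted p = 0.00059 by edgeR). It was called under all 14 alternatives run, and rose by 1.43 with the largest count of any transcript. SNORD36 (ENSMUSG00000064829) in Rpl7a had 17 and 11 in NT and 128 and 54 in CMCT and rose by 2.12 on the log2 scale (adjusted p = 0.012), which was lost without NT 1 or without NT 2. By the largest count of any transcript it had 94 and 121 in NT and 132 and 58 in CMCT, and a log2 fold change of −0.80 (adjusted p = 0.22). Snord45c in Rabggtb, with 117 and 57 in NT and 496 and 339 in CMCT, rose by 1.79 (adjusted p = 0.002), which was lost without NT 2. SNORD45 in the same host had 217 and 166 in NT and 1149 and 533 in CMCT, and rose by 1.56 (adjusted p = 0.0038), which was lost without NT 1 or without NT 2. One SNORD113 locus (ENSMUSG00000084487) rose by 1.55, from 10 and 10 RT stops to 48 and 36, and was also lost without either NT library. Snord22 rose by 1.39 (SE 0.43, adjusted p = 0.028), lost without NT 2. With it, 4 of the 8 members in Snhg1 rose, of which SNORD27 had −1.63 (adjusted p = 0.070 by edgeR) with the largest count of any transcript. The 5 loci of SNORD50 rose by 1.20 to 1.27, but 4 of them hold no unique 25 bases, and each call was lost without NT 1 or without NT 2. With the largest count of any transcript, 1 of them (ENSMUSG00000075818) had 0.49 (adjusted p = 0.26).

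The deepest drops in CMCT were those of SNORD12. The locus in 1500012F01Rik on chromosome 2 (ENSMUSG00000077565) had 1714 and 2611 RT stops in NT, 370 and 1001 in DMS, and 361 and 97 in CMCT, with a log2 fold change of −3.96 ± 0.54 (SE, adjusted p = 0.00047 by edgeR). The locus on chromosome X (ENSMUSG00000077294) had 344 and 88 in CMCT and −3.97. Only 68.8% and 65.5% of the measured positions of these 2 loci start 25 bases that are unique in the genome, so their counts are not independent. Snord12 in the same host (ENSMUSG00000077698), unique throughout, went from 509 and 720 to 166 and 53 and fell by 3.17 (adjusted p = 0.0014), lost without NT 2. With the first 8 positions left out, these 3 falls were smaller, at −2.30, −1.82 and −1.71 in the order given. Snord111 in Sf3b3 fell by 2.14, from 153 and 275 to 112 and 43, and a SNORD113 locus (ENSMUSG00000064545) by 1.72, from 79 and 24 to 30 and 14. The first was lost without NT 2 and the second without NT 1. Of the measured positions of the second, 26% start 25 bases that are unique in the genome. Another SNORD113 locus (ENSMUSG00000064487) had the same NT totals, 79 and 24, and was not called (−0.60, adjusted p = 0.46 by edgeR). With the first 8 positions left out, the SNORD113 locus had −0.59 (adjusted p = 0.52), and Snord111 had a log2 fold change of 2.19 in CMCT (adjusted p = 0.03 by edgeR, at most 0.24 over all alternatives).

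Both comparisons use the same NT libraries, and the difference between DMS and CMCT was not tested. Snord69 fell by 1.41 in CMCT (adjusted p = 0.0063 by edgeR, and 0.050 without NT 2, which ended the call) and by 3.97 in DMS. With the first 8 positions left out, Snord69 rose by 1.08 in CMCT (adjusted p = 0.018), the other direction. Of the 14 members that fell in CMCT, 13 also fell in DMS, and no member rose in both. The share of all genes that fell in both was not counted. Only 2 members, SNORD79 in Gas5 and Snord110 in Nop56, fell in DMS and rose in CMCT. Snord110 was named after its values were seen. SNORD79 had 258 and 257 RT stops in CMCT. The other Gas5 members that rose in CMCT were SNORD75, from 69 and 60 to 238 and 166, and SNORD44, from 10 and 11 to 40 and 39. These 3 rises were each lost without NT 1 or without NT 2. By the largest count of any transcript, SNORD24 fell by 1.51 in CMCT and SNORD77 by 2.16 (adjusted p = 0.0062 and 0.0092 by edgeR). Against the 36 calls of the CMCT comparison, fewer members were called without NT 1 or without NT 2, and more without CMCT 1 or without CMCT 2. Each of these fits leaves 1 library in a group. The share of all genes called was lower without NT 1, without NT 2 or without CMCT 2, and higher without CMCT 1.

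**Figure D3:**
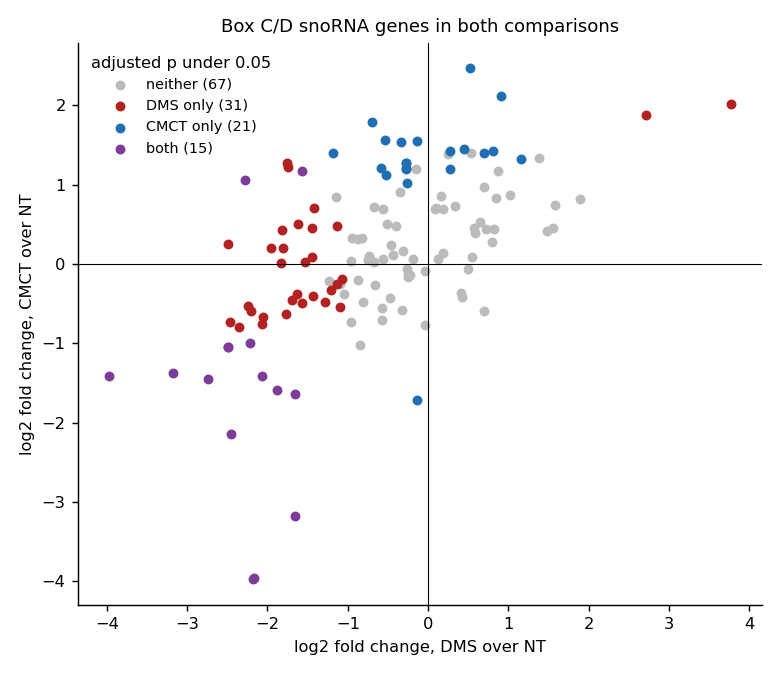
Log2 fold change of each tested box C/D snoRNA gene in DMS over NT (x axis) and CMCT over NT (y axis), coloured by which comparison passed an adjusted p of 0.05. Most coloured points lie left of 0 on the DMS axis. Both axes share the NT libraries, and a colour for 1 comparison does not show that DMS and CMCT differ.

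Few genes of the pathway's proteins passed the test, but the lists are short. Of all genes tested, 26.4% passed in DMS and 29.0% in CMCT, in either direction. All 4 core proteins (Fbl, Nop56, Nop58, Nhp2l1) were tested, and none passed in DMS, while Nop58 rose in CMCT (log2 fold change 0.84, adjusted p = 0.022 by edgeR, called in 10 of 14 alternatives and at most 0.15). Of 11 assembly factors, 8 were tested. None passed in DMS, and in CMCT the trafficking protein Nolc1 rose by 0.76 (adjusted p = 0.031 by edgeR, called in 8 of 14 alternatives and at most 0.17). Of 60 host genes, 57 were tested, and 7 fell and 1 rose in DMS (12.3% and 1.75%, median log2 fold change −0.02), where 12.5% and 13.8% of all genes did. In CMCT 5 rose and 5 fell (8.77% each, median 0.11), against 15.0% and 13.9% of all genes. Where a host transcript holds the snoRNA within an exon, its count includes the stops on the snoRNA stretch.

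The base at which RT stopped was then compared between treated and NT libraries. DMS methylates adenine and cytosine, and CMCT modifies uracil and, less, guanine. For each position with a stop in the treated or NT libraries, 1 was added to the counts, each transcript was scaled to its mean, and the log2 ratio of treated over NT was taken. Members with at least 5 RT stops per base in NT and in the treatment were used, 26 for DMS and 36 for CMCT. For DMS, the mean log2 ratio was 1.42 and 1.47 at adenines in the 2 replicates. It was 0.64 and 0.24 at cytosines, 0.38 and 0.19 at guanines and 0.44 and 0.21 at uracils. Adenine stood apart in both replicates, and cytosine differed from guanine and uracil by no more than the replicates did. The mean at adenine and cytosine exceeded that at guanine and uracil by 0.84 with replicates summed, and by 0.63 and 0.67 in each replicate (0.65 ± 0.03, SD, n = 2).

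For CMCT, uracils had 0.54 and 0.78, while adenines had −0.22 and 0.10, cytosines −0.14 and 0.14 and guanines −0.07 and 0.13. Uracil alone stood apart from the other bases in both replicates. The mean at guanine and uracil exceeded that at adenine and cytosine by 0.46 with replicates summed, and by 0.45 and 0.37 in each replicate (0.41 ± 0.06, SD, n = 2). With position 3 left out, the 2 differences with replicates summed were 0.85 for DMS and 0.51 for CMCT. In box H/ACA snoRNAs the same differences were 1.13 for DMS (0.65 and 1.16) and 0.66 for CMCT (0.62 and 0.49). The replicates of the 2 classes overlapped for DMS, while for CMCT both values of the box H/ACA class lay above both of the members. This was not so without position 3, where the CMCT replicates were 0.61 and 0.49 in the box H/ACA class and 0.50 and 0.41 in the members. All these ratios are descriptions, since an exact permutation test of 2 against 2 libraries cannot pass 0.05.

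**Figure D4:**
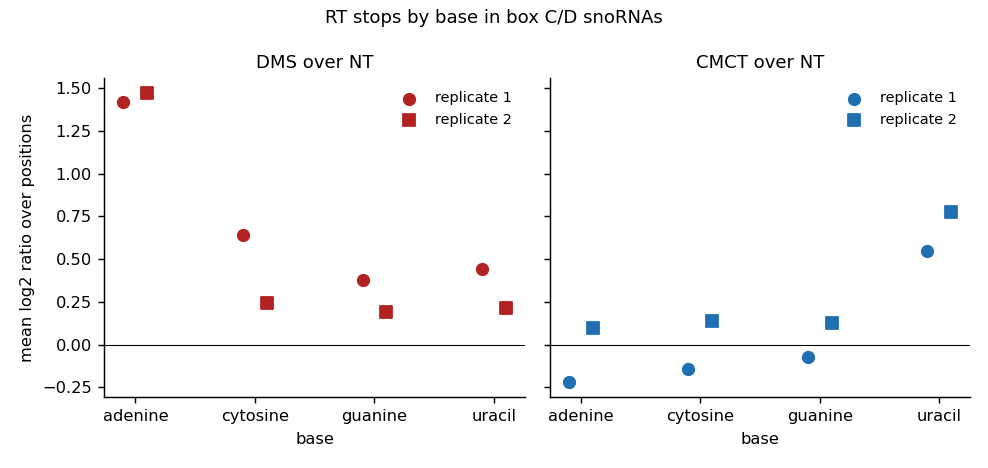
Mean log2 ratio of treated over NT counts at each of the 4 bases, for DMS (left, 26 members) and CMCT (right, 36 members), by replicate. Adenine is highest for DMS at 1.42 and 1.47, and uracil for CMCT at 0.54 and 0.78.

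Within box C, the 2 adenines differed. At the third base of box C the mean log2 ratio for DMS was 1.74 and 2.75 in the replicates. It was taken over 17 members with a stop there in DMS or NT. With replicates summed it was above 0 in 17 of 17, where 83.3% of all adenines were above 0. Because of the added 1 and the scaling, a ratio above 0 does not require more stops in DMS. SNORD94, for example, had 0 and 0 stops there in DMS and 0 and 1 in NT. At the sixth base, also an adenine, the mean log2 ratio was 0.59 and 0.77 over 18 members. The 2 positions as 1 set exceeded the other adenines of the same RNAs by only 0.08, with −0.30 and 0.39 in the replicates, so no difference was seen beyond the replicate spread. With position 3 left out it was 0.19. The guanines and uracils of box C had −0.55 to −0.15 with replicates summed.

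The raw counts over all 90 members with an exact box C show the same base. At the third base there were 83 and 24 RT stops in NT, 98 and 450 in DMS, and 146 and 62 in CMCT. In 3 of these members the third base is position 3 of the transcript, and without them there were 95 and 435 in DMS and 93 and 56 in CMCT, with the same NT counts. In the 80 members with this base beyond the first 8 positions, it held 0.69% and 0.35% of the stops past them in NT, 1.88% and 6.50% in DMS, and 0.50% and 0.55% in CMCT. Over all 90, stops at this base were seen in 29 and 11 members in NT and in 39 and 57 in DMS. At the sixth base there were 160 and 99 stops in NT and 120 and 211 in DMS. In the 87 members with this base beyond the first 8 positions, the shares were 1.26% and 1.54% against 2.15% and 3.28%. Single members give few counts, as in Snord33, with 3 and 0 in NT and 4 and 35 in DMS at the third base, or SNORD24, with 1 and 2 in NT and 5 and 5 in DMS. In a member with far fewer stops in DMS, a single stop against 0 gives a large ratio. In Snord69 the third base had 0 and 0 in NT and 1 and 2 in DMS, and a log2 ratio of 5.45.

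In CMCT replicate 1, the mean ratio was below 0 at every position of box C, but in replicate 2 at the fifth alone. In order along the box, replicate 1 had −0.35, −1.08, −0.12, −0.76, −0.88 and −0.73. Replicate 2 had 0.30, 0.07, 0.55, 0.20, −0.28 and 0.50. With replicates summed, the 2 uracils had −0.06 and −0.36 and the guanines −0.80 and −0.78. The adenine at the sixth base had −0.38, while the adenine at the third base had 0.24. For the uracils, the difference from the other uracils of the same RNAs was −1.13 with replicates summed over 19 members, with −1.16 and −0.77 in the replicates. With up to 1 mismatch in box C it was −0.55. In replicate 1 the bases beside the box were low as well, with −0.75 just before it and −0.55 just after it. In replicate 2 these bases had 0.45 and 0.47. At 24 bases past the first base of the box the mean was 0.79 and 1.51. Whether box C differs from other bases at the same distance from the 5′ end was not tested.

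**Figure D5:**
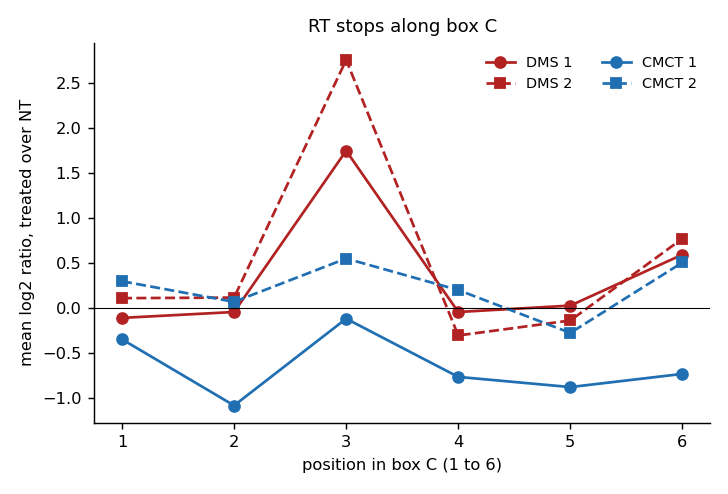
Mean log2 ratio of treated over NT counts at each of the 6 positions of box C, for DMS and CMCT and each replicate. The third position reaches 1.74 and 2.75 in DMS, and the next highest position there is the sixth, at 0.59 and 0.77.

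Predicted pairing was compared next. With minimum free energy structures, unpaired adenines and cytosines exceeded paired ones by 0.19 for DMS (0.15 and 0.20 in the replicates, 26 members). For CMCT, unpaired guanines and uracils exceeded paired ones by 0.50 (0.46 and 0.47, 36 members). With position 3 left out these were 0.31 and 0.56. The 12 bases before box D′, where the guide lies, exceeded the rest by 0.49 for DMS at adenines and cytosines (0.70 and 0.35, 10 members) and by 0.79 for CMCT at guanines and uracils (0.61 and 0.81, 18 members). Both replicates gave the same direction for both reagents. Leaving out position 3 gave differences of 0.54 and 0.87. The rest takes in the 5′ end and box C, and the ratios changed along the RNA. In CMCT, the mean log2 ratio was −0.88 and −0.28 at the fifth base of box C. It was 0.79 and 1.51 at 24 bases past the first base of the box. In DMS, the third base had 1.74 and 2.75, against 1.61 and 0.78 at that distance. Whether the guide differs from other bases at the same distance from the 5′ end was not tested.

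Among single positions of Snord22, the highest DMS ratios lay at adenines. Position 57 had 1 and 2 stops in NT and 60 and 94 in DMS, and position 49 had 1 and 0 in NT and 36 and 109 in DMS. In CMCT, its uracil at position 40 had 56 and 17 in NT and 1298 and 606, and that at position 37 had 18 and 9 in NT and 721 and 376. In SNORD24, the adenine at position 7 had 6 and 3 in NT and 84 and 78 in DMS. Treated and NT libraries do not overlap at these positions, which were chosen for their high ratios. In the predicted structures, positions 49 and 57 of Snord22 were unpaired. Positions 37 and 40 of Snord22 and position 7 of SNORD24 were predicted to be paired.

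Counts at many positions were closer between the NT replicates than counting noise would give. Among positions with at least 50 stops, the NT replicates were equal within 1 at 33.2%, where counting noise alone would give 10.8%. The shares were 7.66% for DMS and 9.69% for CMCT. The cytosine at position 2 of Snord33, for example, had 80 and 80 stops in NT. Over whole genes, 2 of 105 members with enough counts, SNORD81 and Snord65, were equal within 0.1 Poisson SD in all 3 treatments, which is 1.90% against 4.91% of all genes. Why replicate counts were this close was not tested. The SEs and adjusted p-values above take the 2 NT libraries as independent, including those of Snord34 and SNORD29. Whether the NT libraries are independent was not tested either. Leaving such genes out changed the calls to 45 for DMS and 35 for CMCT.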

How the data were processed

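The authors deposited, for each CIRS-seq library, raw counts of RT stops at each transcript position, without normalization, with each stop placed on the modified base. The submitters' processing notes name Bowtie 1.0.0, TopHat2 2.0.6 and bedtools 2.17.0, and the assembly is mm9. How reads that match several loci were handled is not given in the sources used here. The RNA-seq library was deposited as alignments, and those on members and marker exons were counted.

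Members were the transcripts whose symbol starts with SNORD, and 26792 of 26827 transcripts matched GENCODE vM1. Counts per gene took each genomic position once. They were tested with edgeR 4.0.16 (R 4.3.3; TMM, filterByExpr, quasi-likelihood test, Benjamini-Hochberg at 0.05) over all genes, with the 6 libraries in 1 fit, after the script was tested on simulated data. DESeq2 1.42.0, other scalings, filters, positions and left-out libraries were alternatives. Structures were predicted with RNAfold (ViennaRNA 2.7.2). Other steps used Python 3.11.15, numpy 2.4.6, pandas 2.3.3, scipy 1.17.1 and matplotlib 3.10.9.

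Named members were the 8 with the most RT stops per base, the 5 largest rises and drops of each comparison among those past the threshold with no overlap between groups, textbook members, and symbols on 3 or more transcripts. A few items that this rule takes in are not reported here. Others stand for their host and were chosen after their values were seen. Members and lists were chosen with earlier results of these data known. The settings without the first 8 positions, without position 3, and with the largest count of any transcript were also added after seeing the data.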

Additional observations from a re-analysis of the deposited data

Results flagged for a closer look

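In the RNA-seq library, which no comparison uses, 52 of 135 members had more alignments per base than the 200 bases on either side. Snord22 had the most, with 9381 alignments (95% Poisson interval 9192 to 9573), or 74.5 per base against 0.94 beside it. Snord17, Snord15b, Snord15a and Snord118 came next per base, at 38.9, 22.7, 20.5 and 19.2. These members are 126 to 238 bases long, but SNORD94, of 137 bases, had 4.89. Snord69, of 80 bases and with the most RT stops per base, had 0.51 against 1.11 beside it. Whether alignments follow length was not tested, and other short RNAs were not counted. This library has no replicate and no control, and the members held 0.103% of its 31857551 alignments.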

How the results depend on the processing

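The counts of called members were 46 (DMS) and 36 (CMCT). With only positions found once in the genome they were 27 and 16 of 122 tested. In DMS, 0% of these members rose and 22.1% fell, where 10.9% of all genes rose and 4.28% fell. In CMCT, 6.56% rose and 6.56% fell, where 7.41% and 2.40% of all genes did. Without the first 8 positions the DMS count was 29. Leaving out 1 library gave 23 to 62 (DMS) and 6 to 41 (CMCT). With the largest count of any transcript at each position they were 55 and 44, and without position 3 they were 47 and 34. With 2 pairs and no label that gives a shared batch, replicate numbers were not taken as a pairing (the deviations of same-numbered libraries correlated at 0.58 for DMS and −0.06 for CMCT). With the replicate number as a block, 68 and 54 members passed, and all 46 and 36 calls were among them. More of all genes passed under the block as well. Of all genes, 19.7% rose and 22.8% fell in DMS, and 20.3% rose and 17.8% fell in CMCT.

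Of the 47 called fold changes of named members, 528 recomputed values kept the call, 107 lost it in the same direction and 7 changed sign. With the largest count of any transcript these were Snord1a in DMS (−1.13) and SNORD36 in CMCT (−0.80). With the first 8 positions left out these were SNORD74 (0.14) and Snord111 (1.71) in DMS, and Snord69 (1.08), Snord34 (0.86) and Snord111 (2.19) in CMCT. The cause was not tested.

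The median RT stops per base were 14.4 without the last 25 bases, 13.1 with unique positions, and 4.53 to 5.67 with 1 replicate. The DMS base difference (0.84) was 0.47 with a pseudocount of 5, 0.77 and 1.21 with minimums of 1 and 20 RT stops per base, 0.91 when scaled by library total, and 0.63 to 0.67 with 1 replicate. That of CMCT (0.46) was 0.34 with a pseudocount of 5, 0.53 without the first 8 positions, and 0.37 to 0.45 with 1 replicate. The box C adenine difference (0.08) became −0.56 with a minimum of 20, −0.025 with 1 mismatch, and −0.30 to 0.39 with 1 replicate. The box C uracil difference (−1.13) was −0.79 with a pseudocount of 5, −0.55 with 1 mismatch, and −1.16 to −0.77 with 1 replicate.

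The unpaired difference for CMCT (0.50) was 0.37 with a pseudocount of 5, 0.33 and 0.57 with minimums of 1 and 20, 0.60 with unique positions, 0.48 by library total, 0.59 by ensemble probability, 0.61 without the first 8 positions, 0.56 without position 3, and 0.46 to 0.47 with 1 replicate. For DMS (0.19) it was 0.36 and 0.33 with those minimums, 0.25 with unique positions, 0.23 by library total, 0.30 without the first 8 positions and 0.31 without position 3. With 2 replicates and few stops beyond the 5′ end in most members, the position ratios rest on small counts.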
